A study of Rattus norvegicus with 21 samples.

Results

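The microglia and complement genes C1qa, C1qb, C1qc, C3, Tyrobp, Cx3cr1, Aif1, Csf1r, Trem2 and Itgam, 10 in all, were followed in the rat dentate gyrus across stress and antidepressant treatment. They were chosen by name. Each was read from the probe set annotated to that symbol alone, with the highest-mean probe set used where a gene had more than 1. Each had exactly 1, and the 10 genes are 10 of the 14506 that such probe sets measured. The dentate gyrus, the hippocampal subfield of granule neurons, was taken from wild-type male Wistar rats labelled 2 months old, and total RNA was hybridised to Affymetrix arrays. The 6 groups had 3 animals each. The control group was untreated. The stress group went through unpredictable chronic mild stress (uCMS) for 6 weeks. Another 4 groups went through the same stress and received daily intraperitoneal injections in its last 2 weeks of fluoxetine, imipramine or tianeptine at 10 mg/kg, or of agomelatine at 40 mg/kg. Control animals had a repeat array each, averaged here with the first, so that 21 arrays gave 18 animals. Injections are described for the drug groups alone. Fluoxetine was given in water, imipramine and tianeptine in saline, and agomelatine in hydroxyethylcellulose. An effect of a drug therefore cannot be told apart from one of injection or vehicle, and agomelatine also differed in dose.

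Microglia are the resident macrophages of the brain, and they are its main source of C1q, the recognition molecule of the classical complement pathway. C1q is built from the A, B and C chains encoded by C1qa, C1qb and C1qc. Once bound to a surface it starts a protease cascade that cleaves C3, and C3 fragments left on the surface are recognised by complement receptor 3, whose alpha chain is encoded by Itgam. In the developing brain this route is known for tagging synapses that microglia then remove. Trem2 is a microglial lipid-sensing receptor that signals through the adaptor encoded by Tyrobp. Cx3cr1 is the receptor for the neuronal chemokine fractalkine, Csf1r is the receptor on whose signal microglia depend for survival, and Aif1 encodes the calcium-binding protein Iba1, a widely used microglial stain.

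Promoters from RefSeq (build GRCr8) were at hand for 7 of the 10 genes, that is for all but C1qc, Tyrobp and Aif1. The 250 bases before the start of 4 genes are shown, because C1qa, C1qb, C3 and Itgam were among the genes with the widest spread between animals. They lie at chr5:154419934-154420183 (minus strand), chr5:154407828-154408077 (minus strand), chr9:2201340-2201589 (minus strand) and chr1:192089342-192089591 (plus strand), and are written 5′ to 3′ on the gene's own strand. Capitals mark matches, on either strand, to GAGGAA, the core recognised by the myeloid factor PU.1, or to TTGCNNAA, a spaced motif of the C/EBP family.
C1qa: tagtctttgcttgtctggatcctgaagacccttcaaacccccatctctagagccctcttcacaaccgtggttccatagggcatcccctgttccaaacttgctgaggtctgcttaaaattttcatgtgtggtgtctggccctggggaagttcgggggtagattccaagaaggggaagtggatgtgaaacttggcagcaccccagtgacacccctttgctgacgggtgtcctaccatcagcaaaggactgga
C1qb: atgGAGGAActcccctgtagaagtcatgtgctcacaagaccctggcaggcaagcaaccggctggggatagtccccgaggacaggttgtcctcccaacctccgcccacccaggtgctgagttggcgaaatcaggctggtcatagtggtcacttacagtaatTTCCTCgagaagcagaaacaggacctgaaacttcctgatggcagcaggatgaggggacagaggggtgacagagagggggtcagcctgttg
C3: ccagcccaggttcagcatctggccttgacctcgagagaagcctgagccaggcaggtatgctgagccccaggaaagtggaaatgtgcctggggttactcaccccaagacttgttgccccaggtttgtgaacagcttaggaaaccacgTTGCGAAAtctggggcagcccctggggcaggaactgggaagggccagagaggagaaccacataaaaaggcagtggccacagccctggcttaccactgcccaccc
Itgam: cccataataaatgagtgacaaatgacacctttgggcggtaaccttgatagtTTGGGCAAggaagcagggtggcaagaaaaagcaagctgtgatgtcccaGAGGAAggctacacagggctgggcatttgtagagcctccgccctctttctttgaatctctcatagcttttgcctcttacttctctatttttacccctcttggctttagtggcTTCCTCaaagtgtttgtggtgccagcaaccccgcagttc
GAGGAA was found in 4 of the 7 promoters (C1qb, Csf1r, Trem2 and Itgam), against 23.3% of the 33469 rat promoters in the same table. TTGCNNAA was found in 2 of 7 (C3 and Itgam), against 9.2%. Of the sequences shown, C1qb holds GAGGAA on the forward strand from 247 to 242 bases before the start and on the reverse strand from 90 to 85. C3 holds TTGCNNAA from 104 to 97 bases before its start. Itgam holds both motifs, at 151 to 146 and 39 to 34 bases for GAGGAA and at 199 to 192 for TTGCNNAA. None of these matches overlapped another, and C1qa held neither motif in this window. In the gene table C1qb, C1qc and C1qa stand in consecutive rows on 1 chromosome.

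All 10 genes passed the low-signal filter and were among the 10804 genes tested. Values are deposited log2 levels, so a difference of 1 is a 2-fold change, and a gene was called when its limma adjusted p, over all tested genes, was under 0.05. The array medians over all probe sets ran from 7.99 to 8.10, and the median SD between animals of a group ran from 0.063 (imipramine) to 0.114 (agomelatine). Granule neuron markers were present in all animals, with Prox1, a granule cell transcription factor, at 11.05 to 11.84, and so were the microglial markers Tmem119 (8.63 to 9.10) and P2ry12 (9.31 to 9.96). Some samples stood apart in their makeup. Choroid plexus markers, scored as the mean deviation of the list from its mean over animals, stood at 3.21 in agomelatine 1 and 0.79 in stress 1, and between -0.37 and -0.12 in the other 16 animals. Oligodendrocyte markers scored 0.43 to 0.81 in the 3 agomelatine animals and -0.21 to 0.04 in the other 15, and all 11 tested were called higher in agomelatine against stress. Granule neuron markers scored -0.35 to -0.14 in agomelatine and -0.10 to 0.16 in the other 15. Pyramidal neuron markers scored 0.21 to 0.62 and -0.23 to 0.23. In agomelatine against stress 2 of 6 granule markers were called lower and 4 of 8 pyramidal markers higher. The part of these shifts in the agomelatine differences was not tested. In bulk tissue, a change in the number of microglia and a change in RNA per cell cannot be told apart.

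Across the 6 groups the tianeptine group had the highest mean for 9 of the 10 genes and the lowest for Trem2. Within the tianeptine group the animals were split. Tianeptine 1 and tianeptine 3 stood high, and tianeptine 2 lay within the range of the other groups' animals for every gene but Trem2, where it was the lowest of all. By the F test over the 6 groups, limma called 1 of the 10 genes, C3 (adjusted p = 0.0287), and 6.76% of all tested genes. C1qa came next (adjusted p = 0.0681), then Itgam (0.194), Cx3cr1 (0.245), C1qc (0.26), C1qb (0.264), Tyrobp (0.312), Csf1r (0.351), Aif1 (0.486) and Trem2 (0.859). Without tianeptine 2 the same test called 6 genes, C1qa, C1qc, C3, Tyrobp, Csf1r and Itgam, beside 6.19% of all tested genes. It called none without imipramine 3 (4.7% of all genes), without tianeptine 1 (5.3%), without tianeptine 3 (5.96%) or without agomelatine 2 (3.74%).

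**Figure D1:**
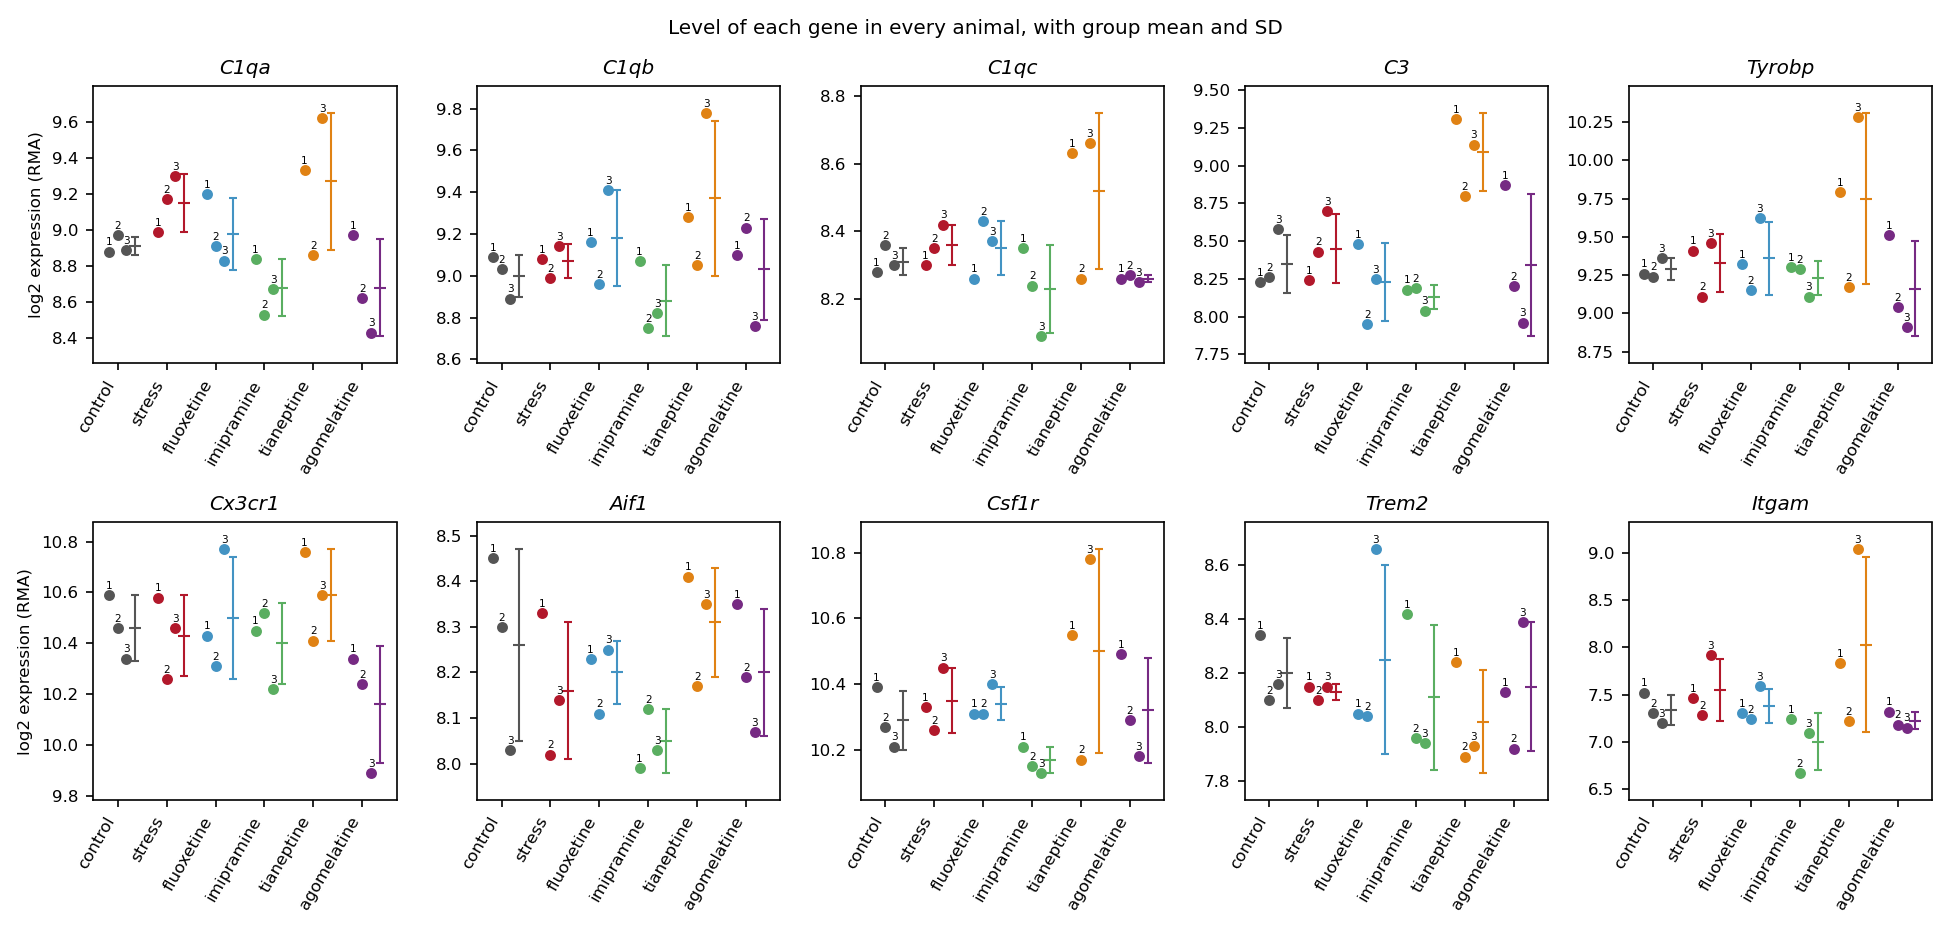
Log2 expression of each gene (y axis, a separate scale per panel, not from 0) in the 3 animals of each group (points, numbered), with the group mean and SD beside them. Tianeptine 1 and 3 lie at or near the top of most panels, and for C3 all 3 tianeptine animals lie above the stress animals.

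C3, the component on which the complement pathways converge, stood at 9.31, 8.80 and 9.14 in the 3 tianeptine animals. It stood at 8.24, 8.43 and 8.70 in stress and at 8.23, 8.26 and 8.58 in control. With fluoxetine it was 8.48, 7.95 and 8.25, with imipramine 8.18, 8.19 and 8.04, and with agomelatine 8.87, 8.20 and 7.96. Every tianeptine animal was above every control, stress, fluoxetine and imipramine animal, and only agomelatine 1 lay inside the tianeptine range. Tianeptine exceeded stress by 0.63 ± 0.19 (SE, n = 3 against 3), a 1.55-fold difference with a 95% interval of 0.24 to 1.03, which was not called (limma adjusted p = 0.943). Leaving out one tianeptine animal at a time left the difference between 0.52 and 0.77. The SD of C3 over the 18 animals was at the 99.3rd percentile of the tested genes.

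The A chain of C1q showed a different order. C1qa stood at 8.88, 8.97 and 8.89 in control, 8.99, 9.17 and 9.30 in stress and 9.20, 8.91 and 8.83 with fluoxetine. It stood at 8.84, 8.53 and 8.67 with imipramine, 9.33, 8.86 and 9.62 with tianeptine and 8.97, 8.62 and 8.43 with agomelatine. All 3 stress animals were above all 3 controls, by a mean of 0.24 ± 0.16 (limma adjusted p = 0.84, n = 3 and 3). That separation holds only with the repeat control arrays averaged in. On the first arrays alone the controls read 9.010, 9.156 and 8.998 and overlapped the stress animals. All imipramine and agomelatine animals were below all stress animals. The difference from stress was -0.48 ± 0.16 (0.72-fold) with imipramine (adjusted p = 0.459) and -0.48 ± 0.16 with agomelatine (adjusted p = 0.0585), and neither was called. Tianeptine minus stress was 0.12 ± 0.16, and it was -0.06 without tianeptine 3. Without the choroid plexus animals, stress 1 and agomelatine 1, the agomelatine difference was -0.71 and was called (limma adjusted p = 0.0259), beside 767 of 10804 genes. That choice followed sight of the data. It drops the lowest stress and the highest agomelatine animal for C1qa, which widens the difference. Over the 20 alternatives run, the limma adjusted p ran from 0.0257 to 0.19.

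The other C1q chains had narrower ranges. C1qb stood at 9.28, 9.05 and 9.78 with tianeptine and at 9.08, 8.99 and 9.14 in stress, while the 15 animals outside the tianeptine group ran from 8.75 (imipramine 2) to 9.41 (fluoxetine 3). C1qc stood at 8.63, 8.26 and 8.66 with tianeptine and at 8.30, 8.35 and 8.42 in stress, against a range of 8.09 to 8.43 outside the tianeptine group. For both chains tianeptine 3 was the highest of all 18 animals and tianeptine 2 lay among the other groups. Tianeptine minus stress was 0.30 ± 0.15 for C1qb and 0.16 ± 0.09 for C1qc, neither called (limma adjusted p = 0.943 for each). Without tianeptine 3 the differences were 0.10 and 0.09. With agomelatine C1qc was nearly constant, at 8.26, 8.27 and 8.25, just below all 3 controls. Those 2 groups did not overlap for 25.7% of all tested genes. The separation holds only with both control arrays averaged, since control 3 read 8.247 on its first array and control 1 read 8.232 on its repeat.

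Itgam, the alpha chain of complement receptor 3, had the widest range of the 10 genes. It stood at 7.83, 7.22 and 9.04 with tianeptine, 7.46, 7.28 and 7.92 in stress and 7.52, 7.30 and 7.20 in control. With fluoxetine the levels were 7.30, 7.24 and 7.59, with imipramine 7.24, 6.67 and 7.09, and with agomelatine 7.32, 7.18 and 7.15. Tianeptine 3 was 2.37 above imipramine 2, the lowest animal, and the Itgam SD was at the 99.7th percentile of the tested genes. Tianeptine minus stress was 0.48 ± 0.29 (limma adjusted p = 0.943, n = 3 and 3), and it was 0.88 without tianeptine 2 and -0.03 without tianeptine 3, so the direction rested on tianeptine 3. All imipramine animals were below all stress animals, by a mean of 0.55 ± 0.29, which was not called (limma adjusted p = 0.525).

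Tyrobp, the signalling adaptor of Trem2 and of other myeloid receptors, stood at 9.79, 9.17 and 10.28 with tianeptine. It stood at 9.41, 9.11 and 9.46 in stress, 9.26, 9.24 and 9.36 in control and 9.32, 9.15 and 9.62 with fluoxetine. With imipramine it was 9.30, 9.29 and 9.11, and with agomelatine 9.51, 9.04 and 8.91. Tianeptine 1 and 3 were the highest of the 18 animals, and tianeptine 2 was within the range of every other group but control. Tianeptine minus stress was 0.42 ± 0.20 (limma adjusted p = 0.943), 0.71 without tianeptine 2 and 0.15 without tianeptine 3. Trem2 itself did not share this order. It stood at 8.24, 7.89 and 7.93 with tianeptine and 8.15, 8.10 and 8.15 in stress, and its highest animal was fluoxetine 3 (8.66). Tianeptine minus stress was -0.11 ± 0.16 for Trem2, with a 95% interval of -0.44 to 0.22.

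Of the remaining receptors, Cx3cr1 stood at 10.76, 10.41 and 10.59 with tianeptine, 10.58, 10.26 and 10.46 in stress and 10.34, 10.24 and 9.89 with agomelatine. In control it was 10.59, 10.46 and 10.34, with fluoxetine 10.43, 10.31 and 10.77 and with imipramine 10.45, 10.52 and 10.22. All 3 agomelatine animals were below all 3 tianeptine animals, and agomelatine 3 was the lowest of all. Agomelatine minus stress was -0.27 ± 0.13 (limma adjusted p = 0.188, n = 3 and 3). Csf1r stood at 10.55, 10.17 and 10.78 with tianeptine, 10.33, 10.26 and 10.45 in stress and 10.21, 10.15 and 10.13 with imipramine. Every imipramine animal was below every stress, control and fluoxetine animal for Csf1r, and imipramine minus stress was -0.18 ± 0.11 (limma adjusted p = 0.573). On the repeat control arrays alone, control 3 read 10.185 and lay below imipramine 1. Aif1 had the narrowest range, from 7.99 (imipramine 1) to 8.45 (control 1), and tianeptine minus stress was 0.15 ± 0.11 (limma adjusted p = 0.943).

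**Figure D2:**
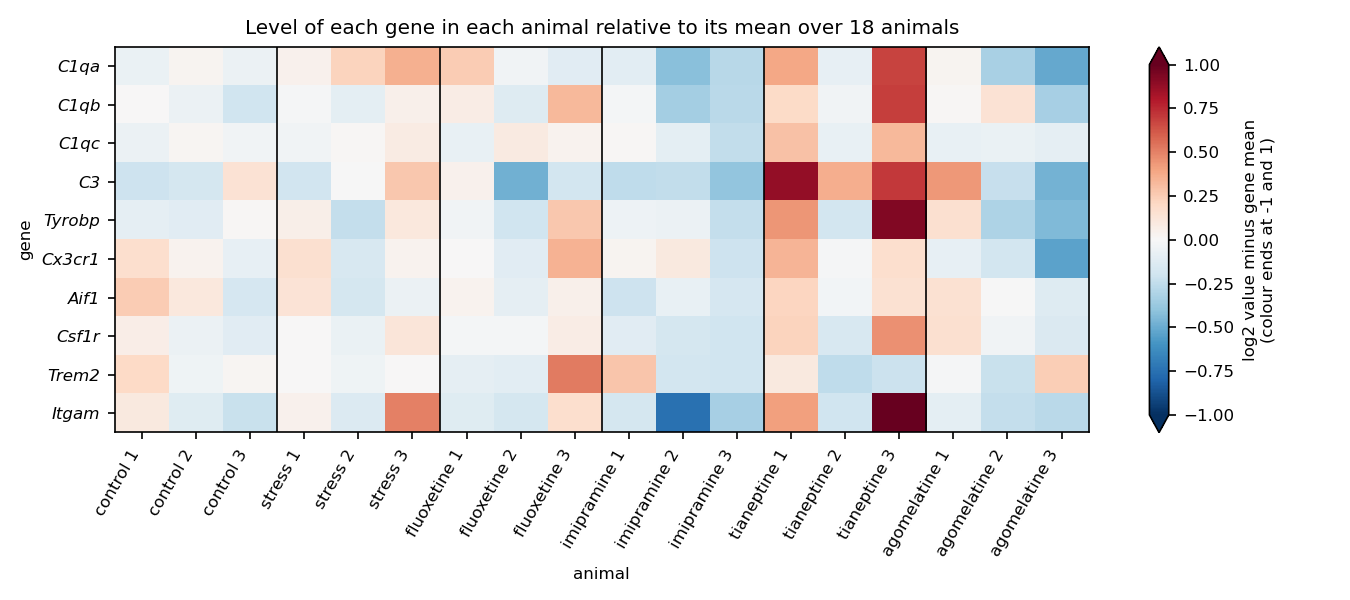
Log2 value of each gene (rows) in each animal (columns) after subtracting that gene's mean across all 18, red above and blue below, with colours ending at -1 and 1. The columns of tianeptine 1 and tianeptine 3 are red for most genes, tianeptine 2 is pale or blue except for C3, and Trem2 follows another pattern.

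Setting groups in order of their means gave 50 neighbouring pairs over the 10 genes, and the animals of the 2 groups overlapped in 46 of them. Over all tested genes, 4.38% of such neighbouring pairs did not overlap. The 4 among the 10 genes were tianeptine over stress for C3, control over imipramine for C1qa and for Csf1r, and control over agomelatine for C1qc. Those with control rest on averaged control arrays. On the repeat arrays alone, control 1 read 8.753 for C1qa and control 3 read 10.185 for Csf1r, below imipramine 1 (8.84 and 10.21). For C1qc, control 3 on its first array (8.247) and control 1 on its repeat (8.232) lay below agomelatine 2 (8.27). Imipramine had the lowest mean for C1qb, C1qc, C3, Aif1, Csf1r and Itgam, and agomelatine for C1qa, Tyrobp and Cx3cr1.

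Stress against control asks whether stress moved these genes. None of the 10 was called, and none of the 10804 tested genes was (0%). At an unadjusted limma p under 0.05 the count was 0 of 10 members and 5.4% of all genes. The 10 differences ran from -0.10 to 0.24, with 7 above 0 and a median of 0.05, beside a median of 0.023 for all tested genes. With array medians made equal, 5 were above 0. The median SE of a difference was 0.16, and the 95% interval included 0 for each of the 10. The animals of the 2 groups did not overlap for 1 gene, C1qa, and for 13.1% of all tested genes. With the first control arrays alone C1qa overlapped as well.

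Each drug was then set against stress alone, and these 4 comparisons share the stress animals. limma called none of the 10 genes in any of them. It called 0% of all genes with fluoxetine, imipramine or tianeptine and 10.8% with agomelatine. With fluoxetine 5 genes were above 0 and 5 below, with a median of 0.02 (all genes -0.009), none had an unadjusted p under 0.05, and 5.01% of all genes did. With imipramine all 10 were below 0, with a median of -0.16 (all genes -0.023), and 8 were below 0 with array medians made equal. Only C1qa had an unadjusted limma p under 0.05 with imipramine (0.00757), against 10% of all genes. With tianeptine 9 were above 0 (7 without tianeptine 3), with a median of 0.16 (all genes -0.016), and C3 alone had an unadjusted limma p under 0.05 (0.00352), against 5.06% of all genes. With agomelatine 8 were below 0, with a median of -0.10 (all genes -0.025), and C1qa alone had an unadjusted limma p under 0.05 (0.00723), against 27% of all genes. The animals did not overlap with stress for 4 genes with imipramine (C1qa, C3, Csf1r and Itgam, against 19.7% of all genes), 1 with tianeptine (C3, against 11.2%), 2 with agomelatine (C1qa and C1qc, against 25.2%) and 0 with fluoxetine (10.8%).

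**Figure D3:**
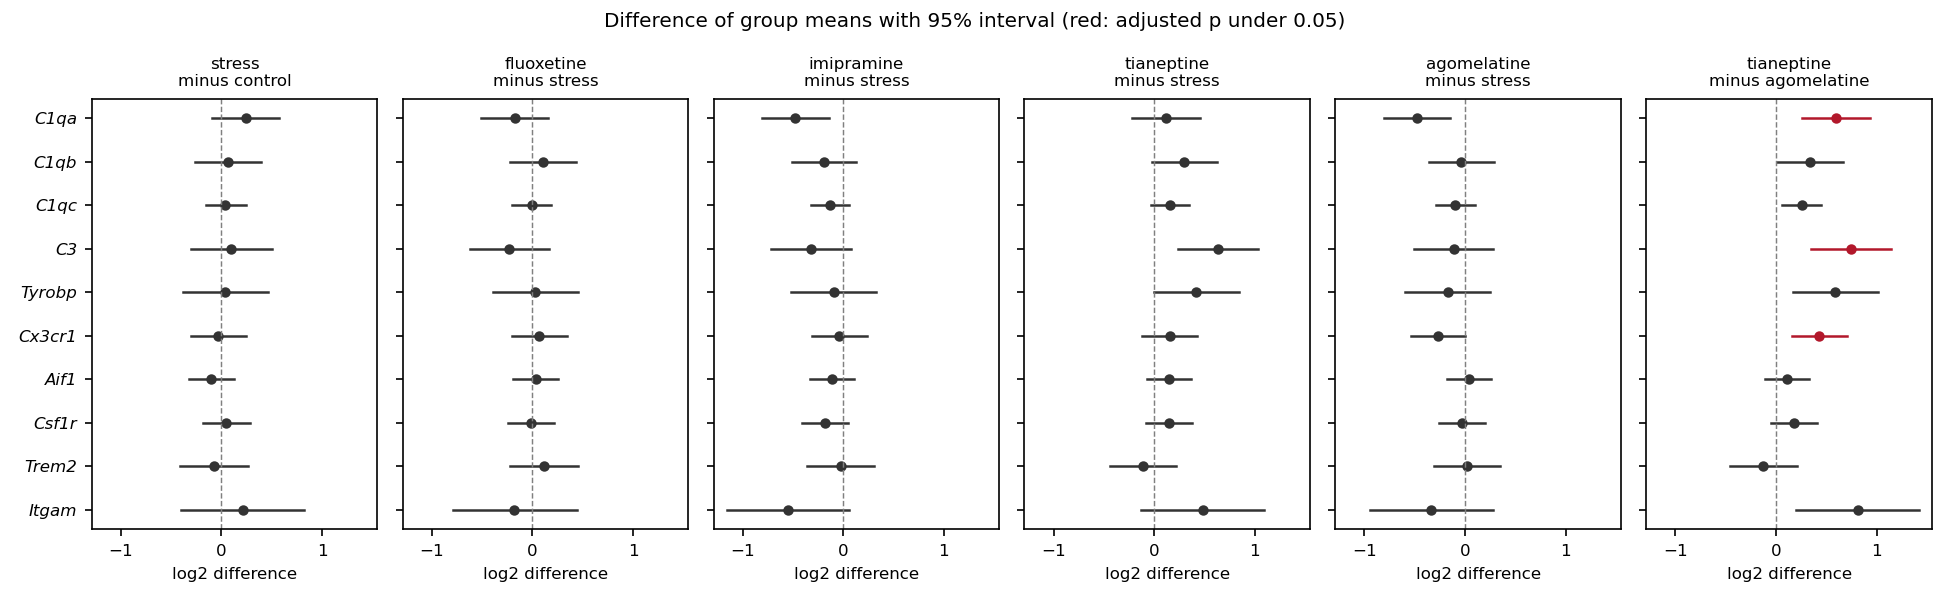
Difference of group means (points, log2, x axis) with its 95% interval (lines) for each gene in 6 comparisons, 3 animals a group, red where the limma adjusted p was under 0.05. C1qa, C3 and Cx3cr1 are red in tianeptine minus agomelatine, and no gene is red elsewhere.

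Against control animals, no gene of the 10 was called with any drug. limma called 0% of all genes with fluoxetine and with tianeptine, 0.0185% with imipramine and 9.59% with agomelatine. With tianeptine, 6 of the 10 (C1qa, C1qb, C1qc, C3, Tyrobp and Itgam) had an unadjusted limma p under 0.05, against 4.04% of all genes, and the median difference was 0.28 (all genes 0.007). Without tianeptine 3 only C3 had (4.06% of all genes), and the differences were 0.18 for C1qa, 0.16 for C1qb, 0.13 for C1qc and 0.19 for Tyrobp. Without tianeptine 1 there were 3 (C1qb, C3 and Itgam, against 3.14% of all genes) and without tianeptine 2 there were 7 (against 4.29%). The largest of the 10 was C3, at 0.73 ± 0.19 (limma adjusted p = 0.858) and at 0.70 without tianeptine 3. Itgam was at 0.69 ± 0.29 and was at 0.19 without tianeptine 3. At the same unadjusted threshold no gene of the 10 passed with fluoxetine or imipramine, and 1, Cx3cr1 (-0.30 ± 0.13), passed with agomelatine. Of all 10804 tested genes, 528 passed with fluoxetine, 894 with imipramine and 2746 with agomelatine.

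The 4 drugs gave 6 pairs, of which 3 were at a matched dose. In those 3, fluoxetine against imipramine, fluoxetine against tianeptine and imipramine against tianeptine, limma called none of the 10 genes and 0% of all genes. Imipramine lay below tianeptine for 9 of 10 genes, with a median difference of -0.41 (all genes -0.014). The difference was -0.95 ± 0.19 for C3 (95% interval -1.35 to -0.56), -1.03 ± 0.29 for Itgam, -0.59 ± 0.16 for C1qa and -0.51 ± 0.20 for Tyrobp. Without tianeptine 3 these were -0.92, -0.52, -0.42 and -0.24. The smallest limma adjusted p over all genes was 0.789, and 8 of 10 genes had an unadjusted limma p under 0.05, against 6.15% of all genes. Without tianeptine 3 there were 4 (C1qa, C1qc, C3 and Itgam, against 4.58%). C1qa, C3 and Aif1 did not overlap between these groups, and neither did 15.5% of all tested genes. C3 was called here, as the only gene of all tested, without agomelatine 1, without stress 1 and agomelatine 1 (limma adjusted p = 0.0374), or with only the 2 groups in the fit (0.0305). Fluoxetine lay below tianeptine by 0.86 ± 0.19 for C3 and 0.65 ± 0.29 for Itgam, the 2 genes with an unadjusted limma p under 0.05 (4.45% of all genes). Without tianeptine 3 the differences were -0.83 for C3 and -0.15 for Itgam. Fluoxetine lay above imipramine for all 10 genes, by a median of 0.14 (all genes 0.017), with none at an unadjusted limma p under 0.05 (11% of all genes).

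The pairs with agomelatine differ in dose as well as drug, so their values are set side by side. C1qa, C3 and Cx3cr1 were higher in tianeptine than in agomelatine. The differences were 0.60 ± 0.16 for C1qa (1.51-fold, limma adjusted p = 0.02), 0.74 ± 0.19 for C3 (1.67-fold, adjusted p = 0.0153) and 0.43 ± 0.13 for Cx3cr1 (1.35-fold, adjusted p = 0.0364). They are the 3 of 10 genes called, all higher in tianeptine, while limma called 13.5% of all genes and 6.98% as higher in tianeptine. For Cx3cr1 alone, 1 of the 10 genes, every tianeptine animal was above every agomelatine animal. The animals of these 2 groups did not overlap for 26.9% of all tested genes. The other differences ran from -0.13 for Trem2 to 0.81 ± 0.29 for Itgam (adjusted p = 0.0723), with Tyrobp at 0.59 ± 0.20 (adjusted p = 0.0582). The count was 0 without tianeptine 1 (6.81% of all genes called) or without agomelatine 3 (14%), 1 (C3) without tianeptine 3 (9.77%), and 7 without tianeptine 2 (8.09%). It was 4 without stress 1 and agomelatine 1 (8.04%), with C3 at 1.00 and C1qa at 0.74. Agomelatine 1 was the highest agomelatine animal for both, so leaving it out widens these differences. In the same pair 11 of 11 oligodendrocyte and 4 of 8 pyramidal neuron markers were called lower in tianeptine and 4 of 6 granule neuron markers higher, and their part in these 3 differences was not tested. In fluoxetine against agomelatine and imipramine against agomelatine limma called none of the 10 genes, with 11.8% and 9.39% of all genes called. At an unadjusted limma p under 0.05 the counts were 1 (Cx3cr1, 0.34 ± 0.13) and 0 of the 10. Of all 10804 tested genes, 2960 and 2782 passed that threshold.

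The repeat arrays of the control animals differed from the first for 2 of these 3 genes. C1qa read 9.010, 9.156 and 8.998 on the first arrays of control 1, 2 and 3 and 8.753, 8.786 and 8.776 on the repeats. Cx3cr1 read 10.75, 10.52 and 10.46 on the first arrays and 10.43, 10.40 and 10.22 on the repeats. Both were lower on every repeat, by 0.28 ± 0.07 for C1qa (limma adjusted p = 0.0117, n = 3 animals) and 0.23 ± 0.05 for Cx3cr1 (adjusted p = 0.00759). Lower on every repeat were 4 of the 10 genes and 27.3% of all tested genes. Without a trend of the variance on the mean, limma called neither C1qa nor Cx3cr1, and 36 genes in all in place of 1286. C3 differed by -0.02 ± 0.09 and Itgam by -0.06 ± 0.10. Tianeptine and agomelatine animals had no repeat array, so the repeats are not part of the means behind 0.60 for C1qa and 0.43 for Cx3cr1. Whether array differences of this kind played a part in those was not tested. The repeats do enter each comparison with control. With first control arrays only, limma called Cx3cr1 in agomelatine against control, beside 1864 of 10804 genes.

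**Figure D4:**
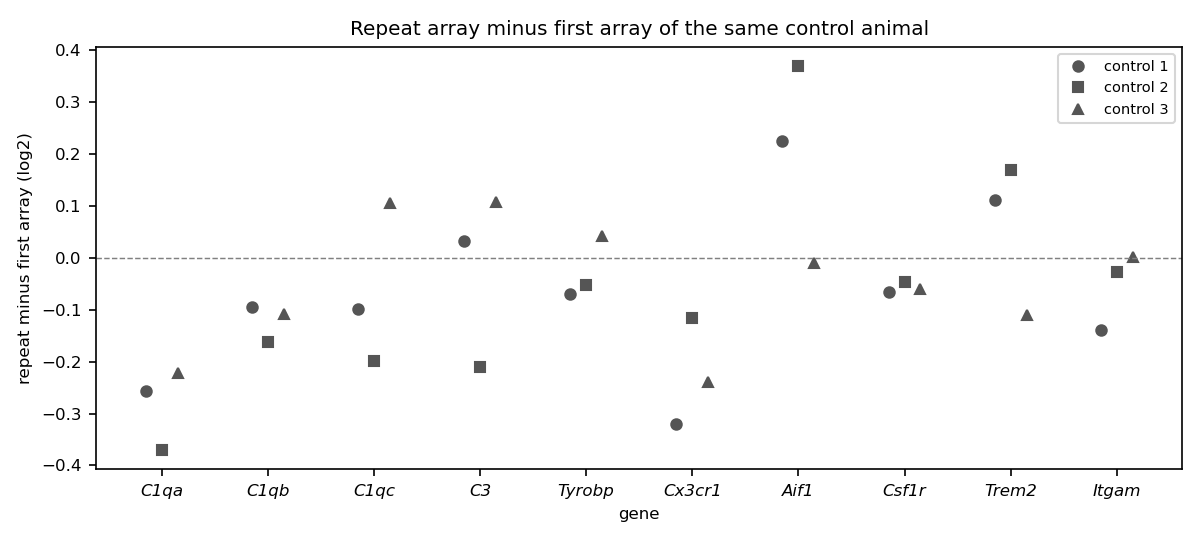
Repeat minus first array of the same control animal (log2, y axis) for each gene, with a marker shape per animal. All 3 animals lie below 0 for C1qa, C1qb, Cx3cr1 and Csf1r, and the 3 animals lie on both sides of 0 for the other genes.

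Other genes of complement gave no call in stress against control or in the drugs given at 10 mg/kg against stress, comparisons in which limma called no gene at all. Of 8 tested genes that start the classical and lectin routes, such as the proteases encoded by C1r, Masp1 and Masp2, none was called in stress against control or in any drug against stress. Masp1 was at 0.20 ± 0.13 and Masp2 at -0.15 ± 0.09 in agomelatine against stress, and the collectin gene Colec11 was at -0.08 ± 0.09. Of the 2 tested genes of the alternative route, Cfp (properdin) was at -0.23 ± 0.10 and Cfd (factor D) at -0.08 ± 0.07. Agomelatine against stress held the calls, a comparison in which limma called 10.8% of all tested genes. They were 1 of 1 tested terminal genes and 1 of 10 tested brakes. C8g, a chain of the terminal component C8, was at -0.37 ± 0.10 (limma adjusted p = 0.0251), and it was the 1 terminal gene of 6 measured that passed the filter. Cd55, which encodes decay-accelerating factor, a surface brake on C3 cleavage, fell by 0.75 ± 0.17 (adjusted p = 0.00855), from 9.15, 8.97 and 8.98 in stress to 8.23, 8.22 and 8.39. Every agomelatine animal was below every stress animal for Cd55 and for C8g. Of the other brakes, 9 tested in all, C4bpa was at -0.53 ± 0.19 and Sez6l at -0.15 ± 0.05, and neither was called.

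Among 7 tested complement receptors none was called against stress. Itgb2, which encodes the beta chain that pairs with the Itgam product, stood at 8.53, 8.20 and 8.67 with tianeptine and 7.82, 8.08 and 8.42 in stress, a difference of 0.36 ± 0.13 (limma adjusted p = 0.943). Calr (calreticulin) was at -0.11 ± 0.05 and C1qbp at -0.02 ± 0.08 in the same comparison. Tianeptine 1 and 3 were again the 2 highest of the 18 animals for Itgb2. In tianeptine against agomelatine limma called C8g, Cd55, C4bpa and Sez6l higher in tianeptine and Calr lower. Those are 1 of 1 terminal genes, 3 of 10 brakes and 1 of 7 receptors, beside 13.5% of all genes. None of the 8 tested genes of the classical and lectin start or the 2 of the alternative route was called there.

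Of 56 other microglial markers listed, 38 were tested, and none was called against stress with any drug or in stress against control. With tianeptine 29 were above 0 and 9 below, with a median of 0.086 (all genes -0.016), and the mean of the list stood at 0.13, -0.09 and 0.17 in tianeptine 1, 2 and 3. That list placed the 3 animals in the order the 10 genes did, whose mean deviations were 0.35, -0.07 and 0.55. On the list, fluoxetine 3 (0.11) and agomelatine 1 (0.10) came near tianeptine 1. Ly86, a partner of a Toll-like receptor homologue, stood at 8.08, 7.82 and 8.50 with tianeptine and at 7.85, 7.72 and 7.93 in stress. Selplg, the P-selectin ligand, was at 0.14 ± 0.12 and Lair1, an inhibitory collagen receptor, at -0.28 ± 0.20. Spi1, which encodes PU.1, was at 0.15 ± 0.09, and the homeostatic marker Tmem119 at -0.16 ± 0.11.

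Ligands gave no call against stress among 11 tested. The Csf1r ligands stood at 0.06 ± 0.08 (Csf1) and -0.12 ± 0.11 (Il34) in tianeptine against stress. Cx3cl1, the ligand of Cx3cr1, was at -0.28 ± 0.09 in agomelatine against stress (limma adjusted p = 0.059) and was called higher in tianeptine than in agomelatine (0.29 ± 0.09, adjusted p = 0.0438). Gas6, a ligand of phagocytic receptor kinases, was called lower in that pair (-0.38 ± 0.12, adjusted p = 0.0425), in which 13.5% of all genes were called. Of 18 tested genes of phagocytic or activated microglia, 1, Cd9, was called in agomelatine against stress, beside 10.8% of all genes. It rose by 0.35 ± 0.09 (limma adjusted p = 0.0242). Its agomelatine animals were at 9.66, 9.20 and 9.16, above all other animals, and Cd9 is also expressed by oligodendrocytes, whose markers rose in the same animals. Cd9 was also called lower in tianeptine than in agomelatine (-0.43 ± 0.09, adjusted p = 0.00666). Lpl was at 0.63 ± 0.20 and Apoe at -0.18 ± 0.07 in agomelatine against stress, and neither was called there. Lpl, which encodes lipoprotein lipase, stood at 10.78, 10.52 and 10.30 with agomelatine. It was called higher in agomelatine than in control (1.01 ± 0.20, limma adjusted p = 0.00522) and lower in fluoxetine (-0.72 ± 0.20, adjusted p = 0.0293) and tianeptine (-0.68 ± 0.20, adjusted p = 0.0347) than in agomelatine. Of all genes, 9.59%, 11.8% and 13.5% were called in those pairs. Pyramidal neuron markers (4 of 8) and oligodendrocyte markers (11 of 11) were also called higher in agomelatine than in control. Their part in the Lpl differences was not tested.

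Of 15 tested cytokine and inflammasome genes none was called against stress or in stress against control. Nfkbia, the inhibitor of NF-kappaB, was called by the F test over the 6 groups (limma adjusted p = 0.00357). It stood at 8.52, 8.58 and 8.49 in control, 8.86, 8.82 and 8.73 in stress and 8.49, 8.41 and 8.45 with fluoxetine, so that stress overlapped neither. It was highest with agomelatine, at 8.81, 9.06 and 8.87, and its called pairs were agomelatine against control (0.38 ± 0.07, limma adjusted p = 0.00359) and fluoxetine against agomelatine (-0.46 ± 0.07, adjusted p = 0.000823). Of all genes, 9.59% and 11.8% were called in those pairs. Ptgs2 was at 0.22 ± 0.09 in fluoxetine against stress and Ccl4 at -0.19 ± 0.07 in stress against control. Markers of border macrophages gave 4 of 5 tested genes below 0 in tianeptine against stress, with scores of 0.06, 0.03 and -0.12. Of 12 measured markers of blood cells 2 passed the filter, and their score was 0.13, 0.17 and 0.01 in the 3 tianeptine animals. With 5 and 2 genes tested, these lists cannot show whether such cells differed between the animals, which was not tested.

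How far the 10 genes followed each other was described over the 18 animals, which share 6 groups, so the values carry no test. Csf1r and Itgam had the highest typical correlation with the other 9 genes (median Pearson r 0.79 each), followed by C1qa and Tyrobp (0.75 each). Trem2 had the lowest (median r 0.06), and Aif1 was at 0.49. For 8 pairs linked by function, animals' deviations from their group mean were tested by permutation within groups. None passed after adjustment over the 8 pairs. The C1q chains gave r = 0.62 (C1qa with C1qb, rho = 0.48, adjusted permutation p = 0.418 and 0.305), 0.57 (C1qa with C1qc) and 0.52 (C1qb with C1qc). These fell to 0.32, 0.15 and 0.13 without tianeptine 2 and 3, the animals farthest from the median. Without tianeptine 3 alone, with group means taken anew, they were 0.42, 0.44 and 0.34. Dropping the most extreme animals narrows the spread, which by itself tends to lower r. How far the relation rested on those animals was therefore not tested. Tyrobp with Trem2 gave r = 0.26, C3 with Itgam 0.28, Csf1r with Il34 0.40 and with Csf1 0.17, and Cx3cr1 with Cx3cl1 -0.12. Csf1r with Csf1 rose to 0.665 without tianeptine 2 and 3 and to 0.61 without tianeptine 3 alone, so that its value turned on those animals.

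The tested genes most like each member over the 18 animals, 5 for each by Pearson r, fell into different kinds. For Tyrobp they were Ly86 (r = 0.91), Unc93b1 (0.90), a chaperone of endosomal Toll-like receptors, Csf1r (0.88), and Rac2 and Fxyd5 (0.87 each). For C3 they were Unc93b1 (0.86), Pld4 (0.82), and Slc11a1, Ly86 and Itgb2 (0.79 each). Itgam was most like Csf1r (0.90) and then Slc11a1 (0.87), a phagosomal metal transporter. Csf1r was most like Itgam and then Pld4 (0.89), Ctsz and Tyrobp (0.88 each). C1qb and C1qc had Itgam and Csf1r among their 5. Cx3cr1, C1qa, Aif1 and Trem2 had none of the other members and no gene of the microglial lists among their 5. For Cx3cr1 these were Bbs1, Unc5a, Ppp1r3d (0.89 each), Tox3 and Ptp4a3 (0.88 each), and for C1qa they were Colgalt1 (0.91), Coasy (0.88), Yipf2 (0.87), Glmp (0.86) and Slc27a1 (0.85). Of the 5 like C1qa, 4 were lower on all 3 repeat control arrays than on the first, beside 27.3% of all tested genes. The count was 3 of 5 for Cx3cr1, 2 of 5 for each of C1qb, C1qc, Tyrobp, Aif1 and Itgam, 1 of 5 for Csf1r and 0 of 5 for C3 and for Trem2.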

How the data were processed

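RNA of 18 animals was hybridised to 21 arrays. The deposited values are on a log2 scale, 1 per probe set. The submitters' processing notes name RMA and Affymetrix Expression Console 1.2. RMA corrects background, quantile-normalises arrays and summarises probes, which shrinks differences at low signal. Arrays carry no read depth, and 3 animals a group limit the precision.

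Of 29214 probe sets, 15310 had 1 symbol in the platform annotation, 323 several and 13581 none here. Repeat control arrays were averaged per animal. One probe set per gene (highest mean) was kept at a mean of at least the 25th percentile (log2 7.165). Group means were fitted over all 18 animals (12 residual df) with limma 3.58.1 (R 4.3.3) and a variance trend, with Benjamini-Hochberg adjustment over 10804 genes. The fit was tested on simulated data. Gene pairs were tested with 100000 permutations, two-sided.

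Members and 21 further lists were chosen with earlier results of these data known. The text names all members and the 5 genes most like each. From the complement, microglia, cytokine and antigen presentation lists it names genes called in stress against control or a drug against stress, and the 3 of smallest F test p where fewer than 3 were called. Called genes of the cell type lists are counted. Tmem119, P2ry12, Spi1, Prox1, C1r, Csf1, Cx3cl1 and Cd74, and list genes called in tianeptine against agomelatine, were named after their values were seen. Alternatives changed the control arrays, filter, probe sets, normalization, weights, variance trend, block, groups fitted, threshold and animals. Leaving out the choroid plexus animals was added after seeing the data.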

Additional observations from a re-analysis of the deposited data

Results flagged for a closer look

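Differences between drug groups were found for 3 members by a test of the difference itself. C1qa was higher in tianeptine than in agomelatine by 0.6 on the log2 scale (limma adjusted p = 0.02), C3 by 0.74 (adjusted p = 0.0153) and Cx3cr1 by 0.43 (adjusted p = 0.0364). The doses and vehicles of the 2 drugs differed, so drug, dose and vehicle cannot be told apart. C1qa and Cx3cr1 were also lower on all 3 repeat arrays of the control animals, by 0.28 and 0.23, and C3 was not (-0.02). In all, 4 of the 10 members and 27.3% of all tested genes were lower on all 3 repeats. Without a variance trend limma called neither C1qa nor Cx3cr1 between repeat and first arrays. Control arrays are not part of the means in this pair.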

How the results depend on the processing

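The counts of 0 members in stress against control and in fluoxetine, imipramine and tianeptine against stress were 0 under all 32 alternatives run. The count among the 6 groups (1) was 2 with repeat control arrays only, with equal array medians, with array weights and at an adjusted p under 0.1, and 0 with the 50th percentile filter, which removed C3. It ranged from 0 to 6 when 1 animal was left out. The F test could not be fitted with only 2 groups. The count in agomelatine against stress (0) was 1, C1qa, with the 50th percentile filter, at an adjusted p under 0.1 and without the choroid plexus animals, and 0 to 1 when 1 animal was left out. Against control it was 1, Cx3cr1 with agomelatine, with first control arrays only. The count in tianeptine against agomelatine, and in any pair of drugs, was 3. In both it was 6 at an adjusted p under 0.1, 0 with array weights, and 0 to 7 when 1 animal was left out. With only the 2 groups compared in the fit it was 0 in tianeptine against agomelatine and 1 in any pair (C3, imipramine against tianeptine). The 3 genes of the other complement, microglia, cytokine and antigen presentation lists called in agomelatine against stress (C8g, Cd55 and Cd9) became 6 with the 50th percentile filter, 5 with equal array medians, 1 with array weights, 9 at an adjusted p under 0.1, and 1 to 8 when 1 animal was left out. No paired gene correlation passed under any alternative. Causes were not tested.

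With the replicate number as a replicate block the tianeptine against agomelatine count was 5 (Tyrobp and Itgam added), and the same in any pair. The numbers did not pair the animals: correlations of same-numbered animals' deviations ran from -0.3 to 0.292, with a median of -0.017. The block changed no other count of members by over 1.5 times. Members called between repeat and first control arrays were 0 with no variance trend, in place of 2.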

Other observations

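Genes of MHC class II antigen presentation, which microglia and border macrophages can express, gave no call among 5 tested against stress. All 5 were below 0 in imipramine against stress, with a median of -0.185. RT1-DMa stood at 11.44 in tianeptine 3 and 11.38 in fluoxetine 3 and RT1-DMb at 9.08 in tianeptine 3, each above the other animals. RT1-Ba ran from 7.10 to 7.88. Cd74, the invariant chain, stood at 9.87 in agomelatine 1, the animal with the highest choroid plexus score, and from 7.90 to 8.94 in the other 17 animals.

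Some genes picked as most like the members over the same animals were themselves called in tianeptine against agomelatine, which is not independent of that choice. They include Tmem176a (0.69, limma adjusted p = 0.00229), Slc11a1 (0.47, adjusted p = 0.0134) and Unc93b1 (0.38, adjusted p = 0.0119). Tmem176a was also lower by 0.44 on the repeat control arrays, while Unc93b1 differed by 0.00 there.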
